A study of Rattus norvegicus with 18 samples.

Results

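The clustered protocadherin span of rat chromosome 18 was defined by position alone, as the cytosines of CpG sites with a start from 29800001 to 31200000 in build rn6. It held 2265 measured cytosines, of 63081 on chromosome 18 and 2330883 in the whole table, and the first and last of them lay at 29846510 and 31176704. The assay was reduced representation bisulfite sequencing (RRBS), in which DNA is cut at CCGG by the enzyme MspI and short, CpG-rich fragments are bisulfite converted and sequenced. All 18 animals were adult male Sprague-Dawley rats, and the DNA came from the left hippocampus of each, taken 24 hours after the last seizure in the rats with seizures. In the kindling model, electrodes in the hippocampus deliver brief stimulations until convulsions generalise, and 4 sham rats were compared with 4 rats that had 3 class V seizures. In the kainic acid model, injections of this glutamate receptor agonist bring on status epilepticus, and 7 sham rats were compared with 3 rats that had 3 class V seizures. What was done to the sham rats is not stated in the labels. The series asks what both models have in common. The tissue is bulk hippocampus, so a change in the mix of cells and a change of methylation within a cell type cannot be told apart, and with methylation as the only readout the tissue label could not be checked against markers.

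Clustered protocadherins are cell adhesion proteins of the cadherin superfamily that neurons use to tell their own branches from those of other neurons. Their genes stand in the alpha, beta and gamma clusters, in which each variable first exon has a promoter of its own. In a single neuron only some of the variable promoters are active, the silent ones carry methylated CpGs, and different neurons use different sets, so a mixture of neurons is known to show partial methylation there. The C-type genes at the end of the alpha and gamma clusters, Pcdhgc3 among them, are active in most neurons instead.

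The following promoter sequences show the contrast on which the description of the gamma end turns, a variable gamma gene with partial methylation and a C-type gene with almost none. Each gives the 250 bases before the start of the gene in RefSeq (build GRCr8), 5' to 3' on the gene's strand, and capitals mark the CpGs that were measured in these rats. The last capital of Pcdhga8 is the C of a CpG that the end of the sequence divides.
Pcdhga8: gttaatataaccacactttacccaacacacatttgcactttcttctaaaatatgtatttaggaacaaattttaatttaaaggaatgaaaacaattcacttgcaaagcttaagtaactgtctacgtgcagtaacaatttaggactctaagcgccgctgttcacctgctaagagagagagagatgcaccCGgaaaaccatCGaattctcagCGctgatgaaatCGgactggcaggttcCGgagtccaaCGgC
Pcdhgc3: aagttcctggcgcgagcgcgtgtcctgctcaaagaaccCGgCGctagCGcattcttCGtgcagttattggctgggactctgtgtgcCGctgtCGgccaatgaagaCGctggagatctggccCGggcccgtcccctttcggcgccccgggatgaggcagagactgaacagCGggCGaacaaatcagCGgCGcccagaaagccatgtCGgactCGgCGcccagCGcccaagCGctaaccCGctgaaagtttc
The Pcdhga8 sequence holds 9 CpGs, of which 6 were measured, and the Pcdhgc3 sequence 26, of which 18 were measured. These promoters thus differ in number of CpGs as well as in kind of gene. Gene names in the span rest on such sequences. No rn6 annotation was used, and the spacing of the measured CpGs was matched to the RefSeq promoters, which places a promoter in rn6 without using any methylation level. Of 33469 promoters, 7079 matched at 1 place, and 6969 of these (98.45%) lay on the chromosome that RefSeq gives. Only these 6969 were used further. Among them 10 matches from 9 genes lay in the span. All 27 from 2 Mb before it to 1 Mb after it stood in the order that RefSeq gives. By name only Pcdhga8 and Pcdhgc3 among them are clustered protocadherins, and no alpha or beta promoter was placed. A match needed at least 8 CpGs, and the 35 clustered protocadherin promoters had a median of 6.

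The matched promoters divided the span into 4 segments. The first ran up to and including the promoter of Taf7, which encodes a subunit of the general transcription factor TFIID. Between Hars2 and Taf7 RefSeq gives 22 beta genes and 1 entry for the alpha cluster, with Zmat2 and LOC120098314. Hars2 was matched outside the span, before its start, so which of these genes lie inside the span was not shown. The second ran from Taf7 to Pcdhgc3 and holds 14 gamma genes with Slc25a2 and Zfp605l1. The third ran from Pcdhgc3 to Diaph1, which encodes a formin that nucleates actin filaments, and holds Pcdhgc5. The last began at the Diaph1 promoter and holds Hdac3, a histone deacetylase, with Rell2, Fchsd1 and Arap3, so the right end of the span does not belong to the protocadherins. These segments were drawn after the levels had been seen, and their values are a description.

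The span was rich in cytosines of intermediate methylation. Its mean level over the 18 rats was 42.0%, near the 44.4% of the other 60816 cytosines of chromosome 18, but that mean was made up differently. Of its cytosines 1213, or 53.6%, had a mean level between 10 and 90%, 658 (29.1%) lay under 10% and 394 (17.4%) above 90%. Over the rest of chromosome 18 those shares were 23.1% intermediate, 46.5% low and 30.3% high, and over the other autosomes 23.4% were intermediate. Within single rats the intermediate share of the span had its lowest value at 50.2%, its median at 52.4% and its highest at 53.6%, against 22.5 to 23.9% over the rest of the chromosome. The difference within a rat was 29.1 ± 0.930 points (SD, n = 18) and ran from 26.8 to 30 points, so the span was higher in 18 of 18 rats. Cut into stretches as long as the span, chromosome 18 had 52 with at least 200 cytosines, and the intermediate share of the others ran from 6.90 to 39.8% with a median of 22.2%.

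**Figure D1:**
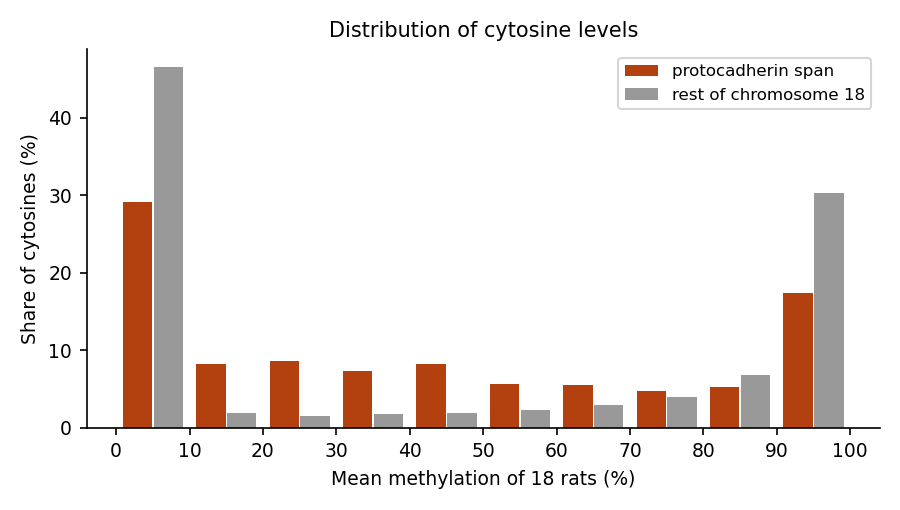
Share of cytosines (%, vertical axis) in classes of mean methylation over 18 rats (%, horizontal axis), for the protocadherin span and for the rest of chromosome 18. The span has 29.1% of its cytosines in the lowest class and 17.4% in the highest, against 46.5 and 30.3%, and each class from 10 to 80% holds a larger share of the span.

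Intermediate cytosines of the span also sat closer to the middle of the scale. Their quartiles were 26.5, 43.0 and 63.4%, against 43.2, 67.8 and 82.2% for the intermediate cytosines of the rest of the chromosome. Levels from 25 to 75% were found for 34.3% of the span's cytosines and 11.4% of the others. Of the intermediate cytosines of the span 73.0% lay between 10 and 90% in every one of the 18 rats, against 58.2% elsewhere on the chromosome. Both strands of a CpG gave nearly the same value. Over 512 intermediate CpGs of the span with both strands measured the median difference was 1.33 points and Pearson's r across CpGs was 0.988, and over 6002 such CpGs of the rest the median was 2.02 points and r 0.974. CpGs of 1 fragment share reads and are not independent.

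Most of the intermediate methylation lay before the Diaph1 promoter, and it was densest in the gamma segment. Between Taf7 and Pcdhgc3 (chr18:30781574-30930191) 772 of 942 cytosines, or 82.0%, were intermediate and 24, or 2.55%, were under 10%. Their median level among intermediate cytosines was 38.2%. The segment up to Taf7, here called the alpha and beta segment from the gene order of RefSeq only, held 689 cytosines, 51 of them in the Taf7 promoter. Of the 689, 50.4% were intermediate, with a higher median of 56.7%. From the Pcdhgc3 promoter on the picture turned. Of 233 cytosines up to Diaph1, 37 of them in that promoter, 6.01% were intermediate and 82.8% were low. From Diaph1 on, 20% of 401 cytosines were intermediate and 60.8% low, which is close to the rest of the chromosome in its intermediate share.

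**Figure D2:**
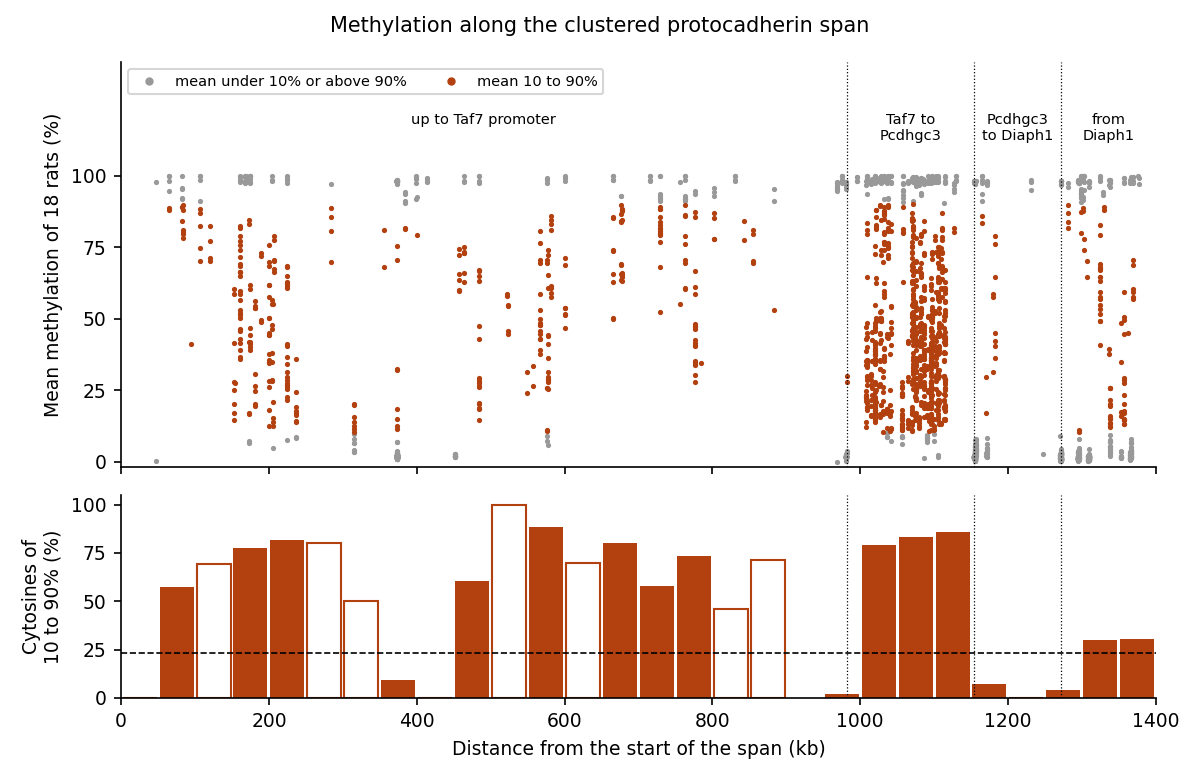
Upper panel, mean methylation of 18 rats (%) of each cytosine against its distance from the start of the span (kb), with dotted lines at the matched Taf7, Pcdhgc3 and Diaph1 promoters. Lower panel, share of cytosines between 10 and 90% (%) in bins of 50 kb, open where a bin has under 20 cytosines, with a dashed line at the 23.1% of the rest of chromosome 18; the gamma segment reaches 79.1 to 85.6%.

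Bins of 50 kb showed the same steps. Of 27 bins with a measured cytosine 17 had at least 20, and the values that follow are from these. The highest mean was 87.9%, in the bin from 29850001 to 29900000 at the left end with 21 cytosines. The lowest was 16.9%, in the bin from 30950001 to 31000000 that starts with the Pcdhgc3 promoter. The largest intermediate share was 88.5%, over 52 cytosines from 30350001 to 30400000 before Taf7, and the 3 gamma bins had 79.1, 83.0 and 85.6%. Not every bin before Taf7 was like this, for in the bin from 30150001 to 30200000 9.42% of 138 cytosines were intermediate.

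At the promoters that could be placed, the levels differed by gene. The Pcdhga8 promoter, one of the variable gamma promoters, was matched by 10 CpGs at chr18:30874810-30874922. The cytosines at 30874921 and 30874922, at the edge of its sequence, had 70.3 and 69.8% and were left out of its values. Its other 14 cytosines outside CCGG had a mean of 32.8% and ran from 14.6 to 56.0%. Kindling sham rats averaged 31.3% ± 2.55 (SD, n = 4) there and kindling seizure rats 34.1% ± 4.80 (SD, n = 4), and the single values were 33.5, 33.6, 29.2 and 29.1% against 38.2, 35.4, 35.5 and 27.1%. Of the kindling seizure rats, 3 lay above all sham rats and 1 below all of them, so the groups overlapped. In the kainic acid model the 7 sham rats had a lowest value of 29.4%, a median of 32.5% and a highest of 35.4%, and the 3 seizure rats had 37.3, 32.5 and 32.2%, which also overlapped. RefSeq places a pair of starts of LOC103694196, a gene on the opposite strand, near Pcdhga8, and its promoter windows had means of 18.4% at chr18:30869567-30869655 and 38.1% at chr18:30874869-30875111, the second of which overlaps the Pcdhga8 window.

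The Pcdhgc3 promoter, matched by 20 CpGs at chr18:30954341-30954583, was almost free of methylation. Its 34 cytosines outside CCGG had means from 1.11 to 1.97%, and their average was 1.60%. By group, kindling sham rats averaged 1.58% ± 0.867 (SD, n = 4) and kindling seizure rats 1.92% ± 0.948 (SD, n = 4). The kainic acid groups had 1.33% ± 0.489 (SD, n = 7) and 1.83% ± 0.107 (SD, n = 3). In both models the groups overlapped. The promoters of the neighbouring genes were like it: Taf7 had 1.68%, Diaph1 2.1%, Hdac3 1.15%, Rell2 1.04% and Fchsd1 1.45%. Arap3 had 9.12%.

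**Figure D3:**
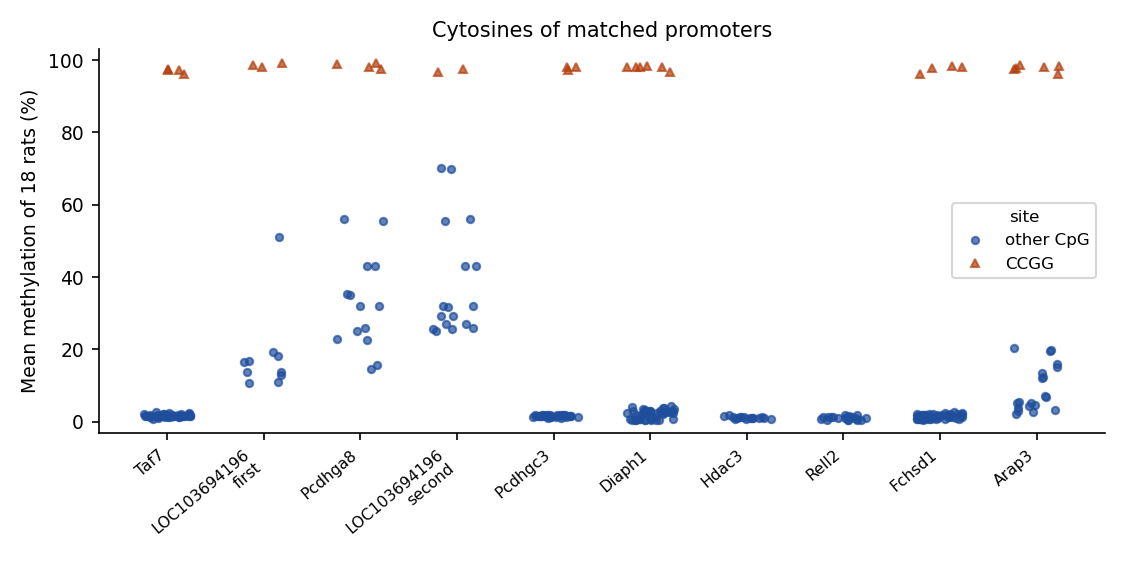
Mean methylation of 18 rats (%, vertical axis) of each cytosine of the 10 matched promoters (horizontal axis, in genome order), with cytosines of CCGG sites and of other CpGs marked apart. Other CpGs reach 70.3% at the LOC103694196 promoter that overlaps that of Pcdhga8 and stay near 0 at Taf7, Pcdhgc3 and Diaph1, while all CCGG cytosines lie above 90%. Cytosines at the edge of a promoter sequence or at no CpG of it are not drawn.

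Cytosines within CCGG, the site that MspI cuts, formed a class of their own at every matched promoter that held any. In the span all 32 of them had means from 96.1 to 99.2%, also at Pcdhgc3, where the CpGs beside them were near 0. The same held over matched promoters of the whole genome, where 16432 CCGG cytosines had a median of 97.8% and 194856 other CpG cytosines a median of 1.39%. A share of 98.6% of the former and 0.291% of the latter lay above 90%. High values at CCGG were therefore not particular to protocadherins, and their source was not tested. Counted among cytosines of at most 90%, 64.8% of the span and 33.2% of the rest of chromosome 18 were intermediate, and 97.0% in the gamma segment.

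The letters CGCT, the core of the sequence element that clustered protocadherin promoters share, were searched on both strands of the 300-base RefSeq promoters, from 250 bases before to 50 after the start. They were found in 28 of 35 clustered protocadherin promoters, or 80%, and in 60.9% of all 33469 promoters. CCGG was found in 40% of the protocadherin promoters and 51.4% of all, and the median number of CpGs was 6 against 7. A match of these letters is not a binding site, and overlap of CGCT with other motifs was allowed.

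Rats differed from each other at these cytosines about as much as they did elsewhere. The range over the 18 rats had a median of 23.5 points for the intermediate cytosines of the span and 23.1 points for those of the rest of the chromosome. By level the medians were 20.4 and 20.3 points between 10 and 30%, 25.9 and 27.3 points between 30 and 50%, 26.2 and 28.0 points between 50 and 70%, and 19.8 and 20.7 points between 70 and 90%. A range above 60 points was seen at 11 cytosines of the span, or 0.486%, and at 0.544% of the others. Averaged in tiles of 1000 bp with at least 3 cytosines, the span gave 129 tiles, of which 100 (77.5%) were intermediate, against 53.3% of 4174 tiles over the rest of the chromosome. With cytosines above 90% left out, those shares were 82.4% of 102 tiles and 73.7% of 2360 tiles. The median range of an intermediate tile was 8.50 points against 9.96 points.

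Tiles of the gamma segment held some of the most even partial levels. The 5 tiles of narrowest range picked by rule (starts 30172001, 30781001, 31071001, 31095001 and 31109001) had ranges of 2.04 to 2.56 points, but their means of 10.5 to 18.7% mixed cytosines above 90% with 0 to 2 intermediate ones. With cytosines above 90% left out, a choice made after seeing this, the 5 most even tiles all lay between Taf7 and Pcdhgc3. The tile starting at 30890001 had 14.5% with a range of 4.28 points over the 18 rats, and the tile starting at 30892001 had 29.3% with a range of 6.24 points. Those at 30900001, 30864001 and 30836001 had 11.2, 24.4 and 19.6%, with ranges of 4.49, 6.37 and 6.52 points. All of these means lay between 10 and 30%. At that level cytosines had narrower ranges than between 30 and 70%, also over the rest of the chromosome. The gamma segment held 772 of the span's 1213 intermediate cytosines, and how many tiles each segment offered for this choice was not counted.

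The widest tile also lay in the gamma segment, at 30808001 to 30809000 with 33 cytosines and a range of 34.1 points. Kainic acid sham rat 5 had 61.3% there, kindling sham rats 3 and 4 had 58.5 and 46.1%, kindling seizure rat 1 had 41.0% and kainic acid seizure rat 3 had 40.1%. The other rats had 27.2 to 34.2%, so the high rats came from all 4 groups. The tile starting at 31103001, past Diaph1, had a range of 29.4 points, with kainic acid sham rat 5 at 66.9% and the other kainic acid sham rats at 93.0 to 96.1%. Its plus-strand cytosine at 31103502 had a range of 93.1 points and the minus-strand partner at 31103503 one of 87.2 points, and in that rat they had 1.27 and 2.47%. Kindling sham rat 4 had 38.0 and 34.7% at the same pair. The cytosine of widest range, at 30913861 on the plus strand, was at 0 in kainic acid sham rat 5 and above 80% in 16 rats. The other tiles among the 5 widest started at 31124001, 29980001 and 30367001, with ranges of 28.4, 25.4 and 23.9 points.

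Seizures did not separate the groups in the mean level of the span. In kindling the sham rats had 43.3, 42.1, 41.6 and 41.4%, and the seizure rats had 43.0, 42.7, 43.1 and 40.4%. The means were 42.1% ± 0.821 (SD, n = 4) and 42.3% ± 1.31 (SD, n = 4), a difference of 0.205 points beside 0.238 points over the rest of chromosome 18. In kainic acid the sham rats ran from 41.4 to 42.1% with a median of 41.6%, and the seizure rats had 43.2, 41.2 and 42.6%. Those means were 41.7% ± 0.263 (SD, n = 7) and 42.3% ± 1.07 (SD, n = 3), a difference of 0.625 points beside 0.339 points over the rest. Of the kainic acid seizure rats 2 lay above all sham rats and 1 below all of them. These sizes moved with single seizure rats: the kindling difference was -0.0561 points without seizure rat 3 and 0.855 points without seizure rat 4, and the kainic acid difference was 0.181 points without seizure rat 1 and 1.22 points without seizure rat 2.

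Intermediate cytosines alone gave overlapping groups as well. Their kindling means were 45.7% ± 1.22 (SD, n = 4) and 45.9% ± 2.07 (SD, n = 4), a difference of 0.213 points beside 0.345 points over the rest of the chromosome, and with 1 rat left out it ran from -0.172 to 1.25 points. Their kainic acid means were 45.0% ± 0.466 (SD, n = 7) and 45.9% ± 1.98 (SD, n = 3), a difference of 0.948 points beside 0.496 points, and with 1 rat left out it ran from 0.122 to 2.05 points. In the gamma segment the kindling difference was -0.0382 points and the kainic acid difference 0.951 points, and in the alpha and beta segment they were 0.449 and 0.870 points. With 1 rat left out, the gamma differences ran from -0.587 to 1.27 points in the kindling rats, highest without seizure rat 4, and from 0.101 to 1.94 points in the kainic acid rats. Those of the alpha and beta segment ran from -0.335 to 1.20 and from 0.121 to 2.35 points. The groups overlapped in all of these comparisons. The intermediate share of the span averaged 52.0% ± 1.23 (SD, n = 4) in kindling sham, 52.0% ± 1.01 (SD, n = 4) in kindling seizure, 52.3% ± 0.774 (SD, n = 7) in kainic acid sham and, after kainic acid seizures, 52.8% ± 0.659 (SD, n = 3). Kindling seizure rat 4 had the lowest gamma level of all rats, 37.7%, and was the lowest of 18 rats at 12 of 35 tested gamma tiles, with a median deviation of -3.39 points.

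**Figure D4:**
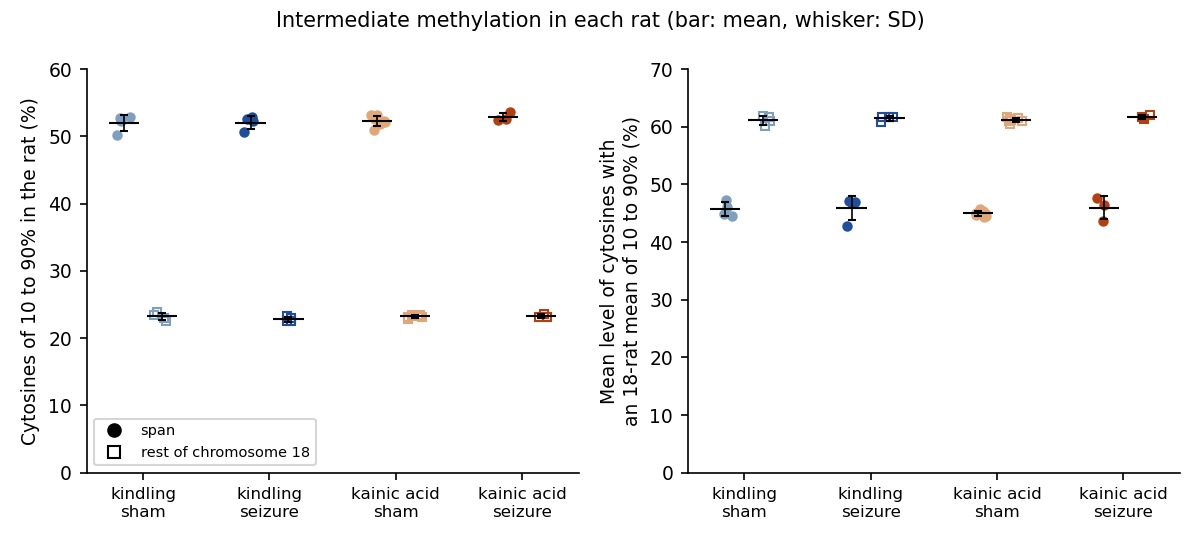
Left panel, share of cytosines between 10 and 90% in each rat (%); right panel, mean level of cytosines with a mean of 10 to 90% (%), by group, for the span (filled circles) and the rest of chromosome 18 (open squares), with group means as bars and SDs as whiskers. Sham and seizure groups overlap in both panels, and kindling seizure rat 4, at 42.8% over the intermediate cytosines of the span, lies below the 46.8 to 47.1% of the other kindling seizure rats.

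Tests on tiles found no called difference in the span. By limma, fitted on 84600 tiles of the genome of which 92 lay in the span, 0 span tiles passed an adjusted p of 0.05 in kindling (0% of all tiles passed) and 0 had an unadjusted p under 0.05, where 5.71% of all tiles did. The smallest adjusted p in the span was 0.888. Of the 92 tiles 53 were higher and 39 lower in kindling seizure rats, with a median difference of 0.326 points beside 0.299 points over all tiles. Without kindling seizure rat 3 it was 44 higher and 48 lower with a median of -0.0632 points, and without seizure rat 4 it was 68 higher with a median of 1.26 points. Leaving out kindling sham rats 1, 2 or 3 or seizure rat 2 gave medians of 0.817, 0.521, 0.0574 and 0.166 points. In kainic acid 0 passed (0% of all) and 2, or 2.17%, had an unadjusted p under 0.05, against 3.54% of all tiles. There 58 were higher and 34 lower, with a median of 0.532 points beside 0.310 points, and the smallest limma adjusted p was 1. Without kainic acid seizure rat 1 it was 51 higher with a median of 0.163 points, below the 0.419 points of all tiles, and without seizure rat 2 it was 70 higher with a median of 1.45 points. The median 95% interval of a span tile reached 4.02 points to either side for the kindling difference and 3.92 points for the kainic acid difference, before any adjustment for the number of tiles.

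The span tiles with the smallest p in kainic acid lay before the Taf7 promoter. The tile from 30602001 to 30603000, with 3 cytosines, had values from 76.6 to 82.8% with a median of 82.0% in kainic acid sham rats, and 85.7, 88.0 and 86.4% in kainic acid seizure rats, so these groups did not overlap. Its means were 80.9% ± 2.24 and 86.7% ± 1.22, a difference of 5.76 points (limma, unadjusted p = 0.00141, adjusted p = 1). In kindling it had 83.5% and 84.9% with overlapping groups. The adjacent tile starting at 30601001, with 4 cytosines, had 90.1% ± 1.45 in kainic acid sham and 92.7% ± 0.821 in kainic acid seizure rats, also without overlap (limma, unadjusted p = 0.0344, adjusted p = 1). At the latter tile, 3 of the 4 cytosines had a mean above 90%. Both tiles were picked for their small p, and how many other tiles separate these groups was not counted. With cytosines above 90% left out, 1 of 84 span tiles had an unadjusted limma p under 0.05 in kainic acid. The same held for 2278 of 66371 tiles over the genome. With at least 6 cytosines per tile, 0 of 75 span tiles had an unadjusted limma p under 0.05 in kainic acid. Over the genome 1796 of 52409 such tiles did. In kindling the largest difference was at the wide tile starting at 30808001, with 41.4% ± 13.6 in sham and 33.0% ± 6.07 in seizure rats, or -8.41 points (limma, unadjusted p = 0.223, adjusted p = 0.921). Without kindling sham rat 3 that difference was -2.69 points.

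What the models shared was asked with the mean of both differences. By limma 0 of the 92 tiles passed (0% of all tiles) and 3, or 3.26%, had an unadjusted p under 0.05, against 4.56% of all tiles. The tile starting at 30602001 had a mean difference of 3.56 points (limma, unadjusted p = 0.00446, adjusted p = 0.990). Most of that mean came from kainic acid, with a difference of 5.76 points against 1.35 points in kindling (limma, unadjusted p of the kindling difference 0.400). A tile past Diaph1, starting at 31081001 with 6 cytosines, was lower by value in both models, with a kindling difference of -2.77 points and a kainic acid difference of -2.85 points (limma, unadjusted p of the mean 0.0294, adjusted p = 0.990). Without kindling seizure rat 4, which had 83.0% there, the kindling difference was -1.15 points. When the kindling difference was subtracted from that of kainic acid, 0 tiles passed (0% of all) and 1, the tile starting at 29961001 with 32 cytosines, had an unadjusted p under 0.05, against 4.75% of all tiles. Its kindling difference was -2.14 points and its kainic acid difference 3.19 points (limma, unadjusted p = 0.0443, adjusted p = 1). The sham rats differed there too, at 66.2% in kindling and 62.6% in kainic acid. That sham difference was -3.54 points (limma, unadjusted p = 0.0360, adjusted p = 0.754), and the seizure rats had 64.0 and 65.8%. Between kainic acid sham and kindling sham rats 0 tiles passed (0% of all) and 3 had an unadjusted p under 0.05, or 3.26% against 6.35%. The tile starting at 31129001 had 88.8% ± 0.904 in kindling sham and 92.4% ± 1.79 in kainic acid sham rats, a difference of 3.56 points (limma, unadjusted p = 0.00256, adjusted p = 0.518).

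**Figure D5:**
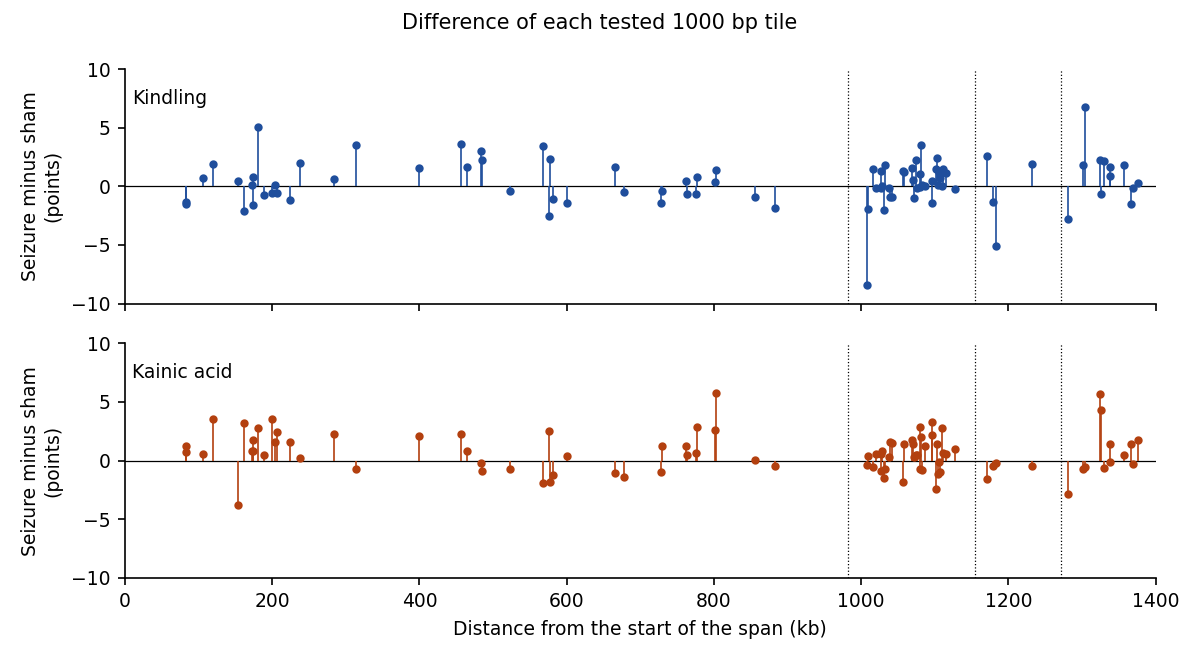
Difference between seizure and sham rats (points, vertical axis) of each tested tile of 1000 bp against its distance from the start of the span (kb), for kindling above and kainic acid below. Kindling differences run from -8.41 to 6.79 points and kainic acid differences from -3.82 to 5.76 points, on both sides of 0.

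Single cytosines gave no call in the span either. Of 800753 cytosines tested by limma 1332 lay in it. In kindling 0 of these passed an adjusted p of 0.05 (0% of all), and 64, or 4.80%, had an unadjusted p under 0.05, against 5.72% of all. In kainic acid 0 passed, where 0.000624% of all cytosines did, and 56, or 4.20%, had an unadjusted p under 0.05, against 3.82% of all. Without kainic acid seizure rat 3 that count was 31, or 2.33%, against 3.26% of all, so the span then lay below the whole table. Of the 56 cytosines 44, or 3.30% of the span, were higher and 12, or 0.901%, lower in seizure rats, against 2.20 and 1.62% of all cytosines. Without kainic acid seizure rat 1 the split was 24 higher and 20 lower. Cytosines of 1 fragment share reads, and no test of this split was made.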

How the data were processed

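RRBS libraries came from 18 rat hippocampi. The deposited table gives a methylation fraction (beta value) per cytosine and rat, each strand on its own row, with 0 missing values. Per the submitters' processing notes, the tools were methylKit, Bismark, Bowtie2, Trim Galore and FastQC and the build was rn6, with no version or role stated. A coverage minimum is not given in these sources. Read counts were not used, since the deposited values are fractions, so the depth is unknown, no interval is given for a single value, and tests on counts were not run.

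Fractions were multiplied to percent. Cytosines were classed by their mean over 18 rats at 10 and 90%. Tiles of 1000 bp with at least 3 cytosines and a range of at least 5 points, and cytosines with a range of at least 10 points, were tested over the whole genome with limma 3.58.1 (R 4.3.3, with data.table at version 1.17.8), as a single fit of 4 group means with a variance trend on the level and Benjamini-Hochberg adjustment. The fit was tested on simulated data. Means and shares over the span got no test. Alternatives covered class limits, strands, tile length, filters, the log2 odds scale, the replicate block, fits within a model, the mean level as covariate and leaving out each rat. Named tiles were, per contrast, the 3 of smallest p in each direction, with the 5 widest and the 5 narrowest intermediate tiles, the extreme bins of 50 kb with at least 20 cytosines, and the 3 widest cytosines. Figures used Python 3.11.15 and matplotlib 3.10.9.

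Genes were to be assigned only with an rn6 annotation. RefSeq tables of GRCr8 were used instead, in a match of CpG spacing added after the data were seen: at least 8 CpGs matched, at most 1 unmatched, positions only, both orientations. No coordinate of GRCr8 is given. The span, the lists and the tests were chosen with earlier results of these data known. Each rat is a separate animal per the labels.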

Additional observations from a re-analysis of the deposited data

Results flagged for a closer look

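In groups of 4 to 10 rats, the highest or lowest rat was looked at where it stood apart from the rest of its group by most of the group's range (Dixon's 95% criterion). Chance alone marks about 1 group in 20 where items are chosen without regard to spread. Here the tiles were chosen for range or small p and several measures are linked, so that rate does not apply to them. Of 135 groups 9 were marked. Kindling seizure rat 4 stood below its group in 3 linked measures: 40.4% against 42.7 to 43.1% for the span mean, 42.8% against 46.8 to 47.1% for its intermediate cytosines, and 37.7% against 42.6 to 43.3% for those of the gamma segment. Kainic acid sham rat 5 stood above its group at the tile starting at 30808001 (61.3% against 27.7 to 33.1%) and below it at the tile starting at 31103001 (66.9% against 93.0 to 96.1%). Kainic acid sham rat 6 had 45.8% against 32.6 to 36.8% at the tile starting at 29980001, and kainic acid sham rat 3 had 53.0% against 49.5 to 50.5% at the tile starting at 30831001. At the Pcdhgc3 promoter kainic acid sham rat 1 had 2.32% against 0.832 to 1.47%, and at the Rell2 promoter kindling seizure rat 3 had 1.63% against 0.381 to 0.486%.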

How the results depend on the processing

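The span's lead in intermediate share, 29.1 points, kept its direction throughout and ran from 29.0 to 29.2 points with 1 rat left out. It was 25.1 points with limits of 20 and 80%, 24.4 points over tiles and 30.4 points from mean levels. With alternatives chosen after seeing the data it was 31.8 points without cytosines above 90%, 36.0 points up to the Diaph1 promoter, and 9.51 points over tiles without cytosines above 90%. The median range of 23.5 points was 25.5 points with limits of 20 and 80% and 17.4 points with strands averaged (17 over the rest of the chromosome), and 22.7 to 23.4 points with 1 rat left out. With 1 rat left out, the kindling difference ran from -0.0561 to 0.855 points for the span and from -0.172 to 1.25 points for intermediate cytosines, and the kainic acid difference from 0.181 to 1.22 and from 0.122 to 2.05 points, highest without seizure rat 2. Relative to the mean of all cytosines of the rest of the chromosome, of any level, the kindling differences were -0.0329 and -0.0249 points. In kainic acid the differences of 0.625 and 0.948 points stood beside 0.339 points over that rest. The causes were not tested. No tile or cytosine of the span passed under any alternative run; unadjusted counts of tiles ran from 0 to 3 in kindling and 1 to 6 in kainic acid with 1 rat left out. Leaving rats out kept the tiles chosen over all 18.

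Same-numbered rats were not treated as pairs, since the labels tie them to nothing shared and their deviations did not all correlate above 0.1: r over tiles was -0.111 to 0.155 in kindling (2 of 4 pairs above 0.1, 1 of 4 seizure rats closest to its own number) and -0.0418 to -0.0156 in kainic acid (0 of 3). With the replicate block 0 tiles passed, 0 and 1 had an unadjusted p under 0.05, and the span differences were 0.205 and 0.674 points. Depth is unknown, so low and high levels of single rats carry an error that cannot be given.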
